A study of Homo sapiens with 80 samples.

Results

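The genes described here are 6 fibroblast growth factor (FGF) ligands, FGF2, FGF4, FGF8, FGF10, FGF17 and FGF19, and 4 genes of the feedback arm of the pathway, SPRY1, SPRY2, SPRY4 and DUSP6. They were chosen by symbol, and all 10 were found among the 43361 genes present in both deposited expression tables. These give TPM, the share of a gene in a library's transcripts after scaling by transcript length. The libraries came from human pluripotent stem cells driven to cardiomyocytes with CHIR99021, a GSK3 inhibitor that switches on WNT signalling, given on day 0. IWP2, a blocker of WNT secretion, followed on day 2 in WTC11 and on day 3 in H9 and IMR90-4, and insulin was added from day 6 or day 7. Purity class rests on the share of cells with cardiac troponin T on day 16, by flow cytometry. In the multi-omic experiment, 25 high purity wells came from a single differentiation of the induced pluripotent line WTC11 at passage 52. The 31 low purity wells came from a single WTC11 differentiation at passage 69. Purity class, passage and differentiation cannot be told apart there, and the p-values measure only the spread between wells of a differentiation. Each class had 4 wells on days 0, 2, 4 and 6, and there were then 3 high and 4 low on day 8, 1 and 4 on day 10, 2 and 4 on day 13, and 3 and 3 on day 16. The RNA-only experiment had 24 total RNA libraries, 1 per purity class at each of 4 stages in 3 lines. Stage 1 was day 0, stage 2 day 2 or 3, stage 3 day 4 or 5, and stage 4 day 6 or 7. The high purity cultures were H9 (an embryonic stem cell line) at passage 58, IMR90-4 (an induced line) at passage 55 and WTC11 at passage 81. Their low purity counterparts were at passages 55, 75 and 69.

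FGF ligands are secreted proteins that bind receptor tyrosine kinases at the cell surface together with heparan sulfate, and FGF19 belongs to the endocrine branch, which needs a klotho co-receptor. The bound receptor drives the RAS, RAF, MEK and ERK cascade. Sprouty proteins, encoded by the SPRY genes, hold back that cascade upstream of ERK, and the phosphatase encoded by DUSP6 removes the activating phosphates from ERK itself. ERK activity raises the transcription of these inhibitors, so they are widely used as readouts of the pathway. FGF2 is an ingredient of media that keep human pluripotent cells undifferentiated, FGF4, FGF8 and FGF17 are expressed in the primitive streak and tail bud of the embryo, and FGF8 and FGF10 mark the second heart field, the progenitors that extend the heart tube.

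Multi-omic libraries held 6579715 to 18143597 reads (median 11381644.5, recovered from the deposited TPM) and RNA-only libraries 17990882 to 40357968. Wells on day 0 had 4487 to 4721 TPM summed over 7 pluripotency markers in high purity and 3793 to 4011 in low purity. On day 16 the sum of 7 cardiomyocyte markers was 10540 to 12660 TPM in high purity and 3852 to 5692 in low purity, so the wells carried the markers of their labels. In these bulk samples fewer expressing cells and less RNA per cell cannot be told apart. Values below are TPM, which are per transcript length and can be set beside each other between genes, and are listed in the order of the wells. A gene is called when its log2 difference on the log2(scaled TPM + 1) scale is at least 1 with a Benjamini-Hochberg adjusted p under 0.05 in limma, fitted over 25664 genes. That scale understates the change of low genes. Where the wells of both classes do not overlap in a group of 4 against 4, the two-sided exact permutation p is 0.0286, the smallest that design allows. For 3 against 4 it is also 0.0286, for 2 against 4 it is 0.0667 and for 3 against 3 it is 0.1.

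In the multi-omic experiment the ligands came in a sequence, FGF2 first, then a day 2 pulse of FGF4 and FGF17, then FGF10, and FGF8 was called between the classes on each of days 2, 4, 6, 8, 13 and 16 while the other called members varied. On day 0 limma called 0 of the 10 members, with 6 at an unadjusted p under 0.05, against 1.03% of all genes called and 24.9% of all genes at that unadjusted p. Day 2 had 3 members called, FGF4, FGF8 and FGF19, all higher in high purity wells, against 5.34% of all genes. Day 4 had 4, with FGF8, FGF17 and SPRY4 higher and DUSP6 lower in high purity, against 7.83% of all genes. On days 6 and 8 the same 4 genes, FGF8, FGF10, SPRY4 and DUSP6, were called higher in high purity, beside backgrounds of 8.93% and 12.3%. On days 13 and 16 only FGF8 and FGF10 were called, both higher in high purity, against 10.8% and 13.5%. The median log2 difference of the 10 members went through 0.35, 0.61, 0.29 and 0.64 over days 2, 4, 6 and 8, where the median of all genes was 0. It was 0.15 on day 13 and -0.083 on day 16. As a difference in the change from day 0, 3 members were called on day 2 (beside 3.24% of all genes), 5 on day 4 (beside 7.02%), 3 on day 6 (beside 7.2%) and 3 on day 8 (beside 10.3%). On days 13 and 16 they were 2 (beside 10.5%) and 3 (beside 13.4%). Within a class, the step from day 0 to 2 had 5 members called in high purity (beside 16.6% of all genes) and 5 in low purity (beside 17.7%). The step from day 2 to 4 had 4 (beside 13.7%) and 5 (beside 16.9%), that from day 4 to 6 had 3 (beside 8.07%) and 3 (beside 6.66%), and that from day 6 to 8 had 0 (beside 5.66%) and 0 (beside 3.32%). From day 8 to 16 there were 4 in high purity (beside 11.6%) and 1 in low purity (beside 6.38%).

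**Figure D1:**
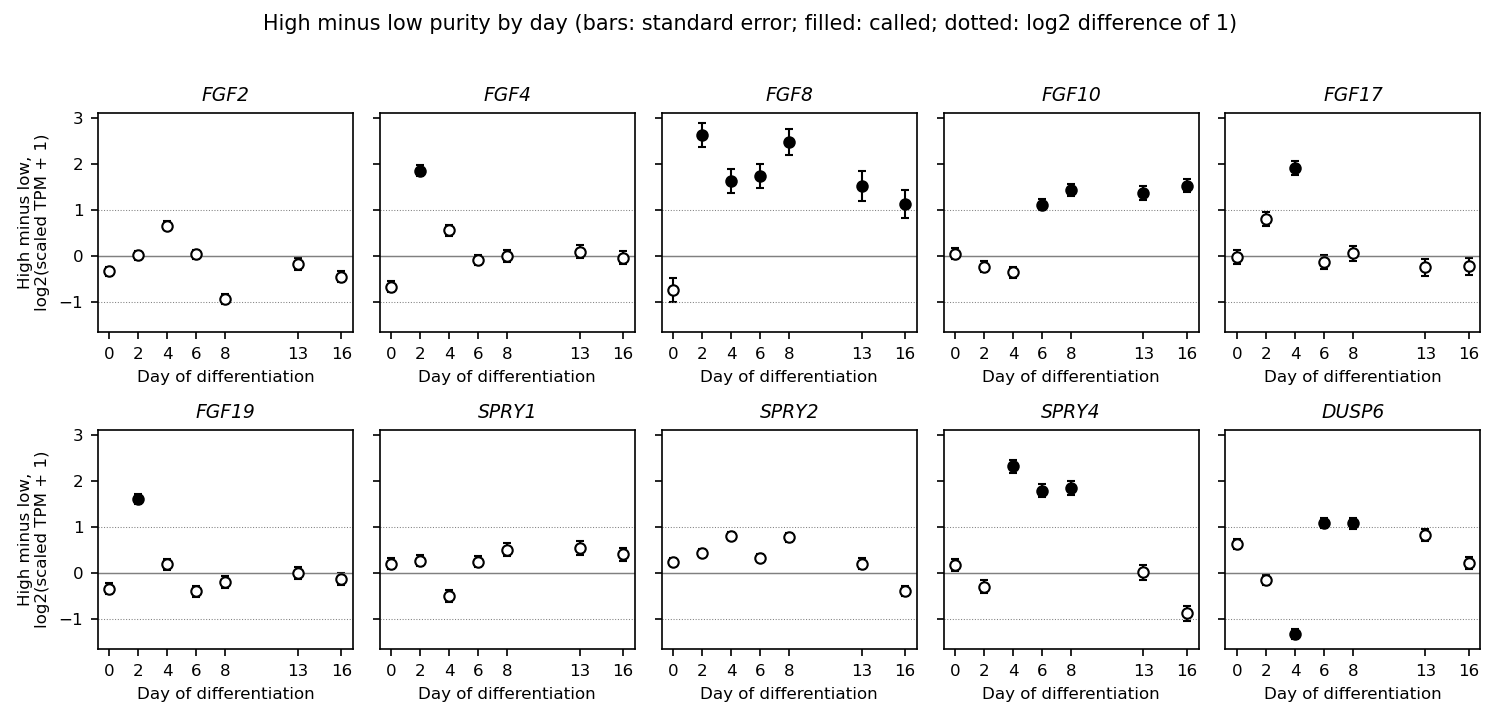
Log2 difference between high and low purity wells for each member (vertical axis, log2(scaled TPM + 1), bars show the standard error) against the day of differentiation. Filled points were called; FGF8 is filled on 6 of 7 days, FGF10 on the last 4 days shown, SPRY4 on days 4, 6 and 8, and DUSP6 is the only member with a filled point below 0, on day 4.

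FGF2, on chromosome 4 from 122826682 to 122898236 (GRCh38), was the main ligand of the undifferentiated cells. On day 0 it stood at 49, 48.6, 53.3 and 50.7 TPM in the high purity wells and at 65.6, 57.5, 59.3 and 59.9 TPM in the low purity wells, with every low well above every high well but a log2 difference of only -0.33 (SE 0.10, adjusted p = 0.0229). FGF2 then fell from day 0 to 2 in both classes, on the log2 scale by 1.93 (SE 0.10, adjusted p = 1.04e-20) in high purity and by 2.28 (SE 0.10, adjusted p = 2.74e-23) in low purity. High purity wells held their level from day 2 to day 4, at 13.2, 12.1, 12.6 and 12.6 TPM, while the low purity wells were at 7.74, 8.54, 7.1 and 7.26 TPM. The classes did not overlap on day 4, and the difference of 0.66 (SE 0.10, adjusted p = 1.01e-06) was under the fold required for a call. From day 8 the order was the other way round: high purity wells were at 2.82, 2.03 and 2.6 TPM and low purity wells at 7.61, 6.58, 6.57 and 6.17 TPM, -0.93 (SE 0.11, adjusted p = 1.95e-09). Low wells remained above high wells on days 13 and 16 too, at 4.67 to 4.91 against 2.43 to 3.26 TPM on day 16, where the difference was -0.45 (SE 0.12, adjusted p = 0.00153). FGF2 was called lower in high purity on day 8 with a pseudocount of 0.1 (-1.14), without TMM scaling (-1.16), with edgeR on recovered reads (-1.18) and without the high purity well numbered 4 (-1.03).

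FGF4, on chromosome 11 from 69771022 to 69775341, was expressed in a single pulse on day 2, 2 days after CHIR99021. The high purity wells of that day had 112, 162, 144 and 115 TPM and the low purity wells 36.9, 35.8, 37.6 and 40.4 TPM, so that all 4 high wells were far above all 4 low wells. The log2 difference was 1.86 (SE 0.12, adjusted p = 6.02e-17). On day 0 the order had been reversed at a low level, 0.163 to 0.647 TPM (2 to 12 reads) in high and 0.695 to 1.55 TPM (7 to 17 reads) in low purity. The change from day 0 to day 2 was larger in high purity, by 2.53 (SE 0.17, adjusted p = 2.4e-15) on the log2 scale. By day 4 FGF4 was at 0.237 to 0.81 TPM in high and 0 to 0.178 TPM in low purity, and no well had more than 2 reads from day 6 on. The day 4 difference was 0.56 (SE 0.12, adjusted p = 0.000128) and not called, but was called with edgeR on recovered reads (2.92, adjusted p = 0.000449), on 3 to 13 reads per high well and 0 to 2 per low well.

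FGF19, on chromosome 11 from 69698238 to 69704022, lies 66999 bases from FGF4 and had another time course. It was already present on day 0, at 11.1, 13.9, 9.46 and 11.7 TPM in high and 11.1, 16.9, 13.2 and 15.5 TPM in low purity wells, which overlapped. On day 2 it stood at 19.4, 22.3, 21 and 19.1 TPM in high purity and at 6.29, 7.21, 6.24 and 5.78 TPM in low purity. The high wells were above and the low wells below their own day 0 level, and the day 2 difference was 1.62 (SE 0.11, adjusted p = 2.1e-15). In low purity FGF19 fell from day 0 to day 2 by 1.14 (SE 0.11, adjusted p = 8.38e-12), whereas the change in high purity, 0.81 (SE 0.11, adjusted p = 4.81e-08), was under the fold required. The difference between these 2 changes was 1.96 (SE 0.16, adjusted p = 2.06e-12). FGF19 then fell in both classes, to 0.137 to 0.434 TPM in high and 0 to 0.19 TPM in low purity on day 4. From day 6 on the high purity wells had 0 reads, where 3 reads would be 0.255 to 0.534 TPM in a well, and low purity wells had at most 3. On these few reads FGF19 was called lower in high purity on day 6 with edgeR on recovered reads (-4.29, adjusted p = 0.00155) or a pseudocount of 0.1 (-1.83), and on day 8 with the same settings (-3.14, adjusted p = 0.0482, and -1.17).

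FGF17, a ligand of the FGF8 subfamily, had the highest level of any member on any day. It was not detected in the high purity wells on day 0 and had 1 read in 1 low purity well. On day 2 it reached 169, 209, 211 and 152 TPM in high purity and 122, 102, 104 and 119 TPM in low purity, at least 1257-fold above day 0 in high purity (against a floor of 3 reads per library). All high wells were above all low wells, but the difference of 0.80 (SE 0.16, adjusted p = 4.95e-05) was under the fold required. On day 4 FGF17 was at 6.78, 10.5, 13.7 and 8.15 TPM in high purity and at 1.53, 1.28, 2.14 and 2.05 TPM in low purity. This day 4 difference was called, 1.92 (SE 0.16, adjusted p = 5.31e-14), on 148 to 250 reads per high well and 19 to 33 per low well. From day 6 on both classes were under 1 TPM.

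The summed level of 7 markers of the primitive streak and nascent mesoderm (TBXT, EOMES, MIXL1, MESP1, MESP2, GSC and LHX1) was highest on day 2, as were FGF4 and FGF17. Single markers did not all follow the sum. In high purity 5 of the 7 had a mean of at least 1 TPM on day 2 and 7 on day 4, and in low purity 6 and 4. The sum on day 2 was 1686 to 2064 TPM in high and 1590 to 1727 TPM in low purity, ranges that overlap although those of FGF4, FGF17 and FGF19 do not. On day 4 the sum was 122 to 153 TPM in high and 20.2 to 25.1 TPM in low purity, no marker of the 7 was under 0.1 TPM in every well of a class, and FGF17 was higher in the same wells. The part of these cells in the FGF17 difference was not tested.

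FGF8, on chromosome 10 from 101770109 to 101780369, separated the classes for the longest time. On day 0 it was at 0.974, 1.38, 2.32 and 1.22 TPM in high and 2.7, 2.34, 2.81 and 3.96 TPM in low purity. On day 2 the high purity wells had 11.1, 8.42, 15.6 and 13.1 TPM and the low purity wells 1.47, 1.85, 0.341 and 1.35 TPM, and the classes had changed places. The difference was 2.63 (SE 0.26, adjusted p = 3.8e-11) on day 2 and 1.62 (SE 0.26, adjusted p = 1.94e-06) on day 4. On day 6, FGF8 stood at 22.5, 12, 14 and 14.7 TPM in high and 4.88, 4.52, 3.83 and 2.58 TPM in low purity, a difference of 1.74 (SE 0.26, adjusted p = 5.05e-07). On day 8 it was at 18.6, 18.5 and 10.03 TPM and 1.48, 6.22, 2.7 and 0.998 TPM, 2.48 (SE 0.28, adjusted p = 7.52e-10). No high purity well overlapped the low purity wells on any tested day from 2 to 16. On day 16 it was at 2.18, 2.31 and 3.69 TPM in high and 1.07, 1.22 and 0.559 TPM in low purity, and the difference was 1.13 (SE 0.30, adjusted p = 0.00202). Without the third well of either class on day 16 this difference was 0.90 or 0.97 and not called, and without TMM scaling it was 0.93. The single high purity well of day 10 had 8.75 TPM beside 2.67, 1.32, 2.6 and 1.23 TPM in the low purity wells. FGF8 rested on few reads, 1 to 22 per low purity well and 4 to 104 per high purity well, so a single low well is imprecise.

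Within high purity, FGF8 rose from day 0 to day 2 on the log2 scale by 2.44 (SE 0.26, adjusted p = 6.2e-11) and fell from day 8 to day 16 by 2.04 (SE 0.30, adjusted p = 3.29e-07). In low purity none of the 5 tested steps (day 0 to 2, 2 to 4, 4 to 6, 6 to 8 and 8 to 16) was called, and the step from day 0 to 2 had a value of -0.94 (SE 0.26, adjusted p = 0.00225). That step was called with edgeR on recovered reads (-1.41, adjusted p = 0.0105) and with a pseudocount of 0.1 (-1.46). From day 8 to 16 the value was -0.69 (SE 0.28, adjusted p = 0.0593), and edgeR on recovered reads called it (-1.26, adjusted p = 0.0364). The difference between the classes in the change from day 0 was 3.38 (adjusted p = 3.14e-09) on day 2 and 3.23 (adjusted p = 5.86e-09) on day 8.

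FGF10, on chromosome 5 from 44300247 to 44389420, rose in both classes from day 0 to day 2 and again from day 2 to day 4, and was then higher in high purity on days 6, 8, 13 and 16. On day 0 it was at 0.105 to 0.277 TPM in high and 0 to 0.256 TPM in low purity, on at most 7 reads per well. The first rise was 1.75 (SE 0.12, adjusted p = 6.09e-17) in high and 2.03 (SE 0.12, adjusted p = 3.61e-19) in low purity, on the log2 scale. It was at 2.1, 3.16, 3.02 and 3.17 TPM in high and 3.17, 3.1, 3.32 and 5.6 TPM in low purity on day 2. Day 4 brought it to 93.7, 67.9, 77.8 and 111 TPM in high and 108, 117, 110.2 and 109.7 TPM in low purity, with overlapping wells and a difference of -0.36 (SE 0.12, adjusted p = 0.0152). From day 4 to day 6 FGF10 fell in low purity by 1.11 (SE 0.12, adjusted p = 2.37e-10), to 58.9, 56.4, 51.4 and 45 TPM. The high purity wells were at 131, 112, 122 and 96.1 TPM on day 6, a change of 0.36 (SE 0.12, adjusted p = 0.0158) from day 4. The high minus low difference was 1.11 (SE 0.12, adjusted p = 1.97e-10) on day 6 and 1.43 (SE 0.13, adjusted p = 1.29e-12) on day 8. On day 16 the wells had 46.1, 56.2 and 46.5 TPM in high and 19.7, 20.7 and 18.3 TPM in low purity, 1.53 (SE 0.14, adjusted p = 9.3e-13). FGF10 was the leading ligand of the 6 in every well from day 4 to day 16.

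Markers of second heart field progenitors (ISL1, TBX1, MEF2C and NKX2-5) were measured in the same wells. Their sum on day 2, when FGF8 already differed, was 0.494 to 0.768 TPM in high and 0.483 to 1.14 TPM in low purity. By day 6 it was 187 to 222 TPM in high and 28.8 to 88.8 TPM in low purity, and on day 16 it was 146 to 154 and 36 to 61.5 TPM. In both classes 0 of the 4 had a mean of at least 1 TPM on day 2, and 3 had on days 6 and 16. None of the 4 was under 0.1 TPM in every well of a class from day 2 on, and on day 0 NKX2-5 was under it in every high purity well. The 6 fibroblast and stromal markers listed further on were apart in the other direction, at 618 to 829.9 TPM in high and 2939 to 4648 TPM in low purity on day 6, and at 496 to 605 and 9583 to 13050 TPM on day 16. The 7 endoderm markers (SOX17, FOXA2, FOXA1, CXCR4, APOA1, AFP and TTR) summed to 916 to 1354 TPM in high and 319.5 to 527 TPM in low purity on day 6, and to 80.5 to 488 and 468 to 1250 TPM on day 16. The part of any of these cells in the FGF8 and FGF10 differences was not tested.

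**Figure D2:**
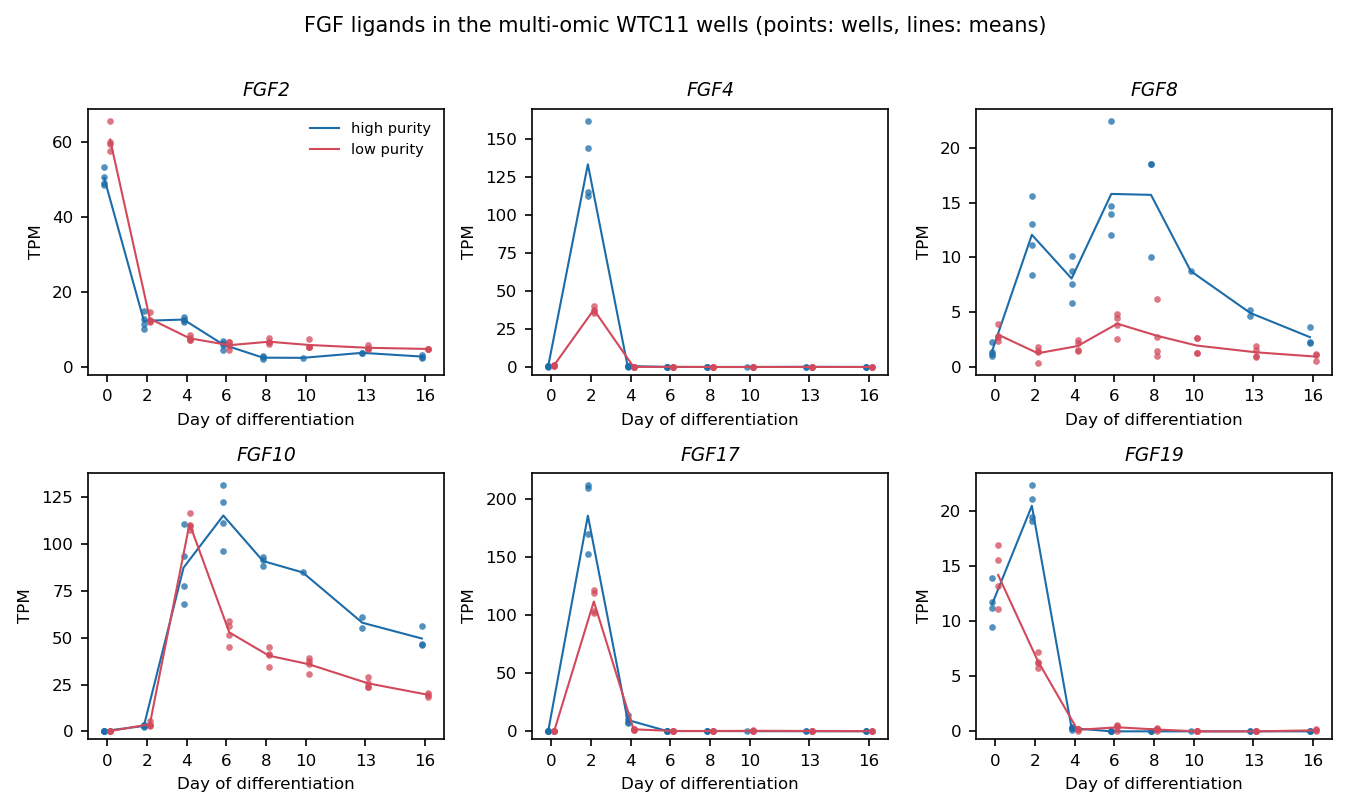
TPM of the 6 ligands (vertical axes, each with its own scale) against the day of differentiation, with 1 point per well and lines through the class means. FGF4 and FGF17 have a single peak on day 2, FGF8 stays higher in high purity after day 0, and FGF10 declines from day 4 in low purity but from day 6 in high purity.

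Summed over the 6 ligands, day 2 had the highest level, 317 to 415 TPM in high and 162 to 184 TPM in low purity wells. FGF17 was the leading ligand in each of these wells. On day 4 the sums were 100.2 to 142 TPM in high and 119 to 129 TPM in low purity and overlapped, although FGF8 and FGF17 differed. From day 6 on every high well was above every low well again, at 116 to 159.9 TPM against 52.8 to 71 TPM on day 6 and 50.8 to 61.8 TPM against 23.9 to 27.3 TPM on day 16.

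Among the feedback genes, SPRY4, on chromosome 5 from 142310430 to 142325021, showed the clearest separation. On day 2 it was at 125, 125, 116 and 116 TPM in high and 170.2, 152, 150.2 and 154 TPM in low purity, with the low wells above the high wells and a difference of -0.29 (SE 0.14, adjusted p = 0.0913). Between day 2 and day 4 SPRY4 fell in low purity on the log2 scale by 2.66 (SE 0.14, adjusted p = 3.45e-21), to 23.7, 26.1, 29.9 and 21.1 TPM. The high purity wells of day 4 were at 126, 125, 154 and 114 TPM, a change of -0.041 (SE 0.14, adjusted p = 0.862) from day 2. By the ratio of mean TPM, high over low, FGF4 (8.85) and FGF17 (5.58) were above SPRY4 (5.15) on day 4. On the log2(scaled TPM + 1) scale the high minus low difference of SPRY4 on day 4 was 2.32 (SE 0.14, adjusted p = 1.93e-18), the largest of any member on that day. It was 1.79 (SE 0.14, adjusted p = 1.07e-14) on day 6, with 95.7, 81.9, 68.1 and 93.9 TPM in high and 27.8, 31.1, 25 and 14.2 TPM in low purity. On day 8 it was 1.85 (SE 0.15, adjusted p = 3.62e-14).

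SPRY4 then fell in high purity, from day 8 to day 16 by 2.69 (SE 0.16, adjusted p = 2.21e-18). The wells of the classes overlapped on day 13, at 12.4 and 13.8 TPM in high and 13.3, 16.9, 16.3 and 14.1 TPM in low purity. On day 16 the high wells, at 6.78, 9.66 and 7.01 TPM, were below the low wells, at 15.3, 18.3 and 19.2 TPM. The day 16 difference of -0.88 (SE 0.16, adjusted p = 1.03e-05) was under the fold required. Without TMM scaling it was -1.09 and was called. An antisense gene, SPRY4-AS1, overlaps SPRY4 and was at 0.362 to 12.7 TPM in the wells. Both library kits keep the strand, but the strand setting of the counting is not given in the sources used here.

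DUSP6, on chromosome 12 from 89347235 to 89352501, differed on days 4, 6 and 8, in opposite directions. On day 0 it was at 115, 114, 117 and 103 TPM in high and 64.3, 65.9, 73.4 and 71.6 TPM in low purity, a difference of 0.63 (SE 0.11, adjusted p = 5.69e-05), under the fold required. On day 4 the low purity wells had 134, 125, 133 and 129 TPM, and the high purity wells 59.4, 45.1, 44.8 and 55.5 TPM. That difference, -1.33 (SE 0.11, adjusted p = 5.66e-14), was the only call between the classes with low purity higher on any tested day by limma with a pseudocount of 1 and TMM scaling. On day 6 the places had changed, with 129.9, 109, 105 and 103 TPM in high and 54.4, 54.8, 53.9 and 44.5 TPM in low purity. The day 6 difference was 1.09 (SE 0.11, adjusted p = 2.06e-11). Both classes thus had a peak of DUSP6 above 100 TPM after day 2, on day 4 in low and on day 6 in high purity. From day 4 to day 6 DUSP6 rose in high purity by 1.06 (SE 0.11, adjusted p = 3.54e-11) and fell in low purity by 1.36 (SE 0.11, adjusted p = 3.91e-14). Without the third high purity well of day 4 the high purity step was 0.97 and not called.

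By day 8, DUSP6 was at 58.1, 55.7 and 52.2 TPM in high and 22.8, 37.9, 35.4 and 30.4 TPM in low purity, 1.08 (SE 0.12, adjusted p = 1.58e-10). Without the first low purity well of day 8, the lowest, the difference was 0.95 and not called, and without TMM scaling it was 0.81. DUSP6 fell from day 8 to day 16 in both classes, to 5.24, 6.5 and 6.97 TPM in high and 5.16, 6.77 and 6.69 TPM in low purity, which overlapped.

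Day 4 was the day on which DUSP6 and SPRY4, both feedback genes of the same cascade, differed in opposite directions. Summed over the 7 cardiomyocyte markers (TNNT2, MYH6, MYH7, ACTN2, MYL7, NPPA and TNNI1), low purity wells had 1081 to 1238 TPM on day 4 and high purity wells 68.1 to 104 TPM, and 6 of the 7 were at a mean of at least 1 TPM in each class. By day 6 the sums were 1356 to 2700 TPM in low and 2351 to 4596 TPM in high purity and overlapped, and on day 8 they were 3211 to 5146 and 9234 to 10780 TPM. The 6 fibroblast and stromal markers (COL1A1, COL1A2, COL3A1, LUM, DCN and POSTN) summed to 963 to 993 TPM in low and 167 to 253 TPM in high purity wells on day 4, with DCN under 0.1 TPM in every high well. The 7 pluripotency markers summed to 969.6 to 1095 and 1856 to 2458 TPM. The part of any of these cells in the SPRY4 and DUSP6 differences was not tested.

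SPRY2, on chromosome 13 from 80335976 to 80341126, differed between the classes by less than the fold required on every tested day. It went from 44.4, 45, 47.3 and 43 TPM on day 0 to 82, 97.4, 94.5 and 82.4 TPM on day 2 in high purity, a change of 1.00 (SE 0.092, adjusted p = 6.46e-13) that was just under the fold required and was called with a pseudocount of 0.1 (1.01) or without any one of 4 wells. In low purity it went from 33.9, 34.6, 38.5 and 36.4 to 73.9, 63.4, 64.9 and 73.8 TPM, 0.80 (SE 0.092, adjusted p = 3.02e-10). On day 4 the high purity wells, at 92.1, 63.3, 81.5 and 79.97 TPM, were all above the low purity wells, at 43.8, 42.1, 49.5 and 43.3 TPM. The differences of 0.81 (SE 0.092, adjusted p = 7.81e-10) on day 4 and 0.78 (SE 0.099, adjusted p = 1.04e-08) on day 8 were under the fold required. SPRY2 fell in high purity from day 8 to day 16, by 1.18 (SE 0.11, adjusted p = 9.84e-13), and the same step in low purity was -0.018 (SE 0.099, adjusted p = 0.941). The difference between these 2 steps was not tested. On day 16 the order was the other way round, at 13.1 to 19.4 TPM in high and 24.6 to 26.1 TPM in low purity. The difference in the change from day 0 was 0.56 (adjusted p = 0.00086) on day 4 and -0.63 (adjusted p = 0.000305) on day 16.

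SPRY1, on chromosome 4 from 123396795 to 123403760 and 498558 bases from FGF2, was the only member called in no comparison. In high purity it had 41.1, 45.2, 50.5 and 44.7 TPM on day 0 and 24.5, 29.1 and 28.1 TPM on day 16. In low purity the same days had 37.4, 36.1, 40.1 and 35.5 and 23.8, 23.7 and 24.2 TPM. Day 4 was the only tested day on which the low wells lay above the high wells, at 31.9 to 37.5 against 22.7 to 26.6 TPM, -0.50 (SE 0.12, adjusted p = 0.00105).

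**Figure D3:**
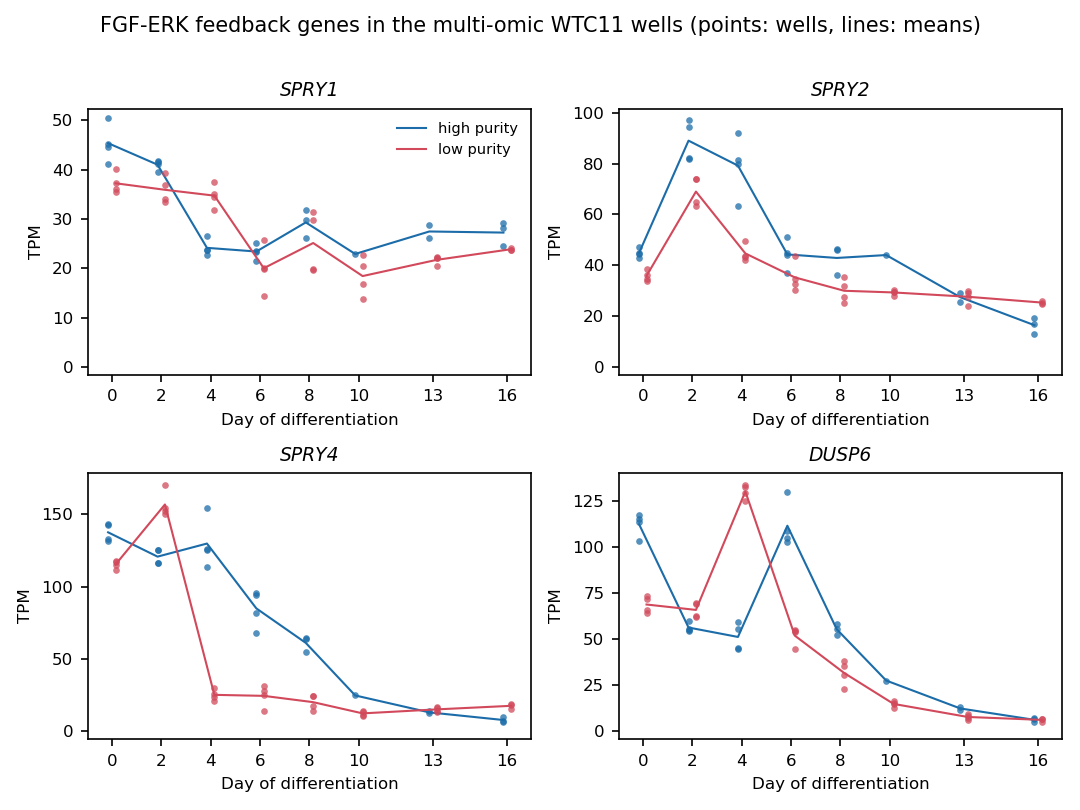
TPM of the 4 feedback genes (vertical axes, each with its own scale) against the day of differentiation, with 1 point per well and lines through the class means. SPRY4 lies lower in low purity on days 4, 6 and 8, and the DUSP6 peak after day 2 falls on day 4 in low and on day 6 in high purity.

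RefSeq promoter windows were in hand for 6 of the 10 members (9 windows of 250 bases before a start), and were searched on both strands for CCGGAA, a core of sites bound by ETS factors, and for CTTTGA, a core of TCF/LEF sites. Of 35116 such windows of all genes, 14.5% held the ETS core and 11.2% the TCF/LEF core. The sprouty windows are shown because the 3 paralogs parted in these wells: SPRY4 was called on 3 days, while SPRY1 and SPRY2 were called on none. They come from RefSeq on GRCh38.p14, with chr4:123396545-123396794 on the plus strand for SPRY1, chr13:80341127-80341376 on the minus strand for SPRY2 and chr5:142324248-142324497 on the minus strand for SPRY4, and capitals mark a motif.
SPRY1: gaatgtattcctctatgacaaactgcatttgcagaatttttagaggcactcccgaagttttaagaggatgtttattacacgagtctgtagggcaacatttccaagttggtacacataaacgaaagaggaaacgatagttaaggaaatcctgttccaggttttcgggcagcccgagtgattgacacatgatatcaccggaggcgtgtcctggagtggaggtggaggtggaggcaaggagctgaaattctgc
SPRY2: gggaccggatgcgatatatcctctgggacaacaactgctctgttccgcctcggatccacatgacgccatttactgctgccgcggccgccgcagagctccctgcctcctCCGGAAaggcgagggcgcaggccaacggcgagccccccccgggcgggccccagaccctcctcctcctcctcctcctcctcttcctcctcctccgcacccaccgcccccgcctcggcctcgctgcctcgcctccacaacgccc
SPRY4: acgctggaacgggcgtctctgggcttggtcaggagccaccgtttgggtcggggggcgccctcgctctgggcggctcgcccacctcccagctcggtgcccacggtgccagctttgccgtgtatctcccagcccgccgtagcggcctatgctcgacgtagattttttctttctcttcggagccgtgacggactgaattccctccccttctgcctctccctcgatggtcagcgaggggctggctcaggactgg
The SPRY2 window held 1 ETS core, at position -142 from the start. Neither motif was found in the SPRY1 and SPRY4 windows shown, nor in the windows of FGF2, FGF10 and DUSP6. A second SPRY1 start had 1 ETS core at position -67, and another SPRY2 start had 2 TCF/LEF cores. In GENCODE v29 the SPRY1 and SPRY2 windows shown overlap no exon, and 170 bases of the SPRY4 window are covered by an exon of a non-coding SPRY4 transcript. All 250 bases of the FGF10 and DUSP6 windows, and a stretch of 123 bases of the FGF2 window, lie in an exon of the same gene. Those windows are thus not wholly upstream of the gene in that annotation. The match is a description of letters and says nothing of binding.

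The RNA-only experiment asked the same of 3 lines, each with its own high and low purity differentiation. edgeR's quasi-likelihood test on the counts, with line and stage in the model, called 0 members between the classes at any stage, where 0% of all 24810 genes were called. At an unadjusted p under 0.05 there were 0 members at stage 1, 2 at stage 2 (FGF2 and FGF17), 1 at stage 3 (SPRY1) and 0 at stage 4. Of all genes 1.46%, 7.74%, 7.37% and 11.8% were under that p at stages 1 to 4. DESeq2 and limma on the TPM also called 0 members at each stage. The errors were wide. At stage 3 the difference was 1.15 (SE 0.92, adjusted p = 0.831) for SPRY4 and 0.22 (SE 0.63, adjusted p = 0.97) for DUSP6. Without H9 (replicate 1) FGF4 was called at stage 3 (-1.52, adjusted p = 0.0362), lower in high purity, where its level was 0.205 to 1.73 TPM over the 6 libraries.

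At stage 2, FGF17 was higher in the high purity library of all 3 lines, at 18.2, 87 and 75.8 TPM in H9, IMR90-4 and WTC11 against 0.917, 66 and 38.1 TPM in the low purity libraries of the same lines. The difference was 1.67 (SE 0.75, adjusted p = 0.64). SPRY4 had the same order in all lines at that stage, 36.1, 48.5 and 24.7 TPM against 4.97, 41.5 and 15.9 TPM, and again at stage 4, 6.23, 10.9 and 9.9 TPM against 1.02, 8.89 and 6.67 TPM, as 15.2% of all genes had there. The stage 2 order was the reverse of the multi-omic wells of day 2. At stage 3 SPRY4 was at 19.96, 11.5 and 16 TPM in high and 0.72, 14.1 and 13.1 TPM in low purity. The high purity library was then higher in H9 and WTC11 and not in IMR90-4. At stage 1, FGF2 and SPRY4 had the low purity library higher in all 3 lines, beside 10% of all genes. FGF2 and FGF10 had the low purity library higher in all 3 lines at stage 2. Of all genes tested, 17.6% had the high library higher in every line at stage 2 and 11.9% the low library, so such an order is common. At stage 3, FGF10 was higher in high purity in every line, at 66.7, 73.1 and 23.3 TPM against 6.66, 40.4 and 6.77 TPM. FGF19 and SPRY1 had that order too, beside 21.1% of all genes. FGF19 was low there, at 0.18 to 0.755 TPM (7 to 41 reads) in high and 0.13 to 0.66 TPM (6 to 34 reads) in low purity. At stage 4, FGF10 was at 78.1, 42.5 and 33.5 TPM in high and 1.39, 43 and 16.7 TPM in low purity. The high purity library was then higher in H9 and WTC11 and not in IMR90-4. In the multi-omic wells FGF10 overlapped on day 4 and was called from day 6 on. FGF4, which was higher in high purity in the multi-omic wells on day 2, was higher in the high purity library only in H9, with 5.59, 9.08 and 50.5 TPM against 0.683, 13.5 and 74.6 TPM in H9, IMR90-4 and WTC11. FGF8 was likewise higher in high purity only in H9 at stage 2, at 18, 11 and 3.88 TPM against 4.05, 13.5 and 23.1 TPM. At stage 3 FGF8 was at 36.6, 7.28 and 9.35 TPM in high and 0.146, 13.8 and 8.09 TPM in low purity. At stage 4 the values were 18.6, 22.2 and 19.5 TPM against 0.272, 29.5 and 15.4 TPM. At both stages the high purity library was far higher in H9, slightly higher in WTC11 and lower in IMR90-4.

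The low purity H9 differentiation stood apart from the other 5. Its SPRY4 was at 37.5, 4.97, 0.72 and 1.02 TPM over stages 1 to 4, against 37.3, 36.1, 19.96 and 6.23 TPM in high purity H9. DUSP6 went through 154, 165, 35.2 and 14.4 TPM there and through 189.9, 29.4, 29.3 and 138 TPM in high purity H9. FGF10 was at 0.113, 20.9, 6.66 and 1.39 TPM in low and 0, 5.4, 66.7 and 78.1 TPM in high purity H9, so that it was highest at stage 2 in the low and at stage 4 in the high purity differentiation. Over all lines at stage 2, the 7 primitive streak markers summed to 25.8 to 475.6 TPM in the low purity libraries and to 490.2 to 771 TPM in the high purity libraries. Which line had the lowest sum is not given here. In IMR90-4 the classes were closer, with DUSP6 at 58, 33.7, 35.6 and 129 TPM in high and 41.1, 40.3, 39.4 and 143 TPM in low purity. WTC11 had DUSP6 at 89, 51, 57.7 and 118 TPM in high and 119.5, 33.7, 20.8 and 78.3 TPM in low purity. At stage 3, which was day 4 in WTC11, the high purity library was thus higher, the reverse of the multi-omic wells of that day.

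Over stages, the 6 differentiations shared most of the course of the ligands. From stage 1 to 2 edgeR called 5 members, beside 25.6% of all genes. FGF2 fell by 2.32 (SE 0.26, adjusted p = 1.39e-06), and was lower in 6 of 6 differentiations. FGF4, FGF8, FGF10 and FGF17 rose in 6 of 6, with log2 changes of 4.37 (adjusted p = 0.000349) for FGF4, 2.21 (adjusted p = 0.0149) for FGF8, 5.08 (adjusted p = 0.00167) for FGF10 and 10.00 (adjusted p = 5.86e-07) for FGF17, a fitted value that depends on the prior count because FGF17 was near 0 at stage 1. From stage 2 to 3, 4 members were called, beside 6.86% of all genes: FGF4, FGF17 and FGF19 fell in 6 of 6 differentiations, and FGF10 rose in 5 of 6, by 3.29 (SE 1.09, adjusted p = 0.047). From stage 3 to 4 FGF17 alone was called, and it fell by 3.29 (SE 0.83, adjusted p = 0.0232), against 3.72% of all genes. The FGF10 rise from stage 1 to 2 was not called by limma on TPM (1.69, adjusted p = 0.0666), nor was the FGF17 fall from stage 3 to 4 (-1.15, adjusted p = 0.255). The FGF10 rise from stage 2 to 3 was not called with no filter other than 1 read (3.30, adjusted p = 0.0561). Leaving out a line ended some of these calls: without WTC11 FGF8 lost its rise from stage 1 to 2 (2.15, adjusted p = 0.0927), and FGF10 lost its rise from stage 2 to 3 without IMR90-4 (2.00, adjusted p = 0.403) or without WTC11 (2.93, adjusted p = 0.317). FGF17 lost its fall from stage 2 to 3 without IMR90-4 (-3.52, adjusted p = 0.0625), and that from stage 3 to 4 without IMR90-4 (-3.39, adjusted p = 0.24) or WTC11 (-2.19, adjusted p = 0.288). DUSP6 had a value of 1.52 (SE 0.51, adjusted p = 0.0815) from stage 3 to 4 and was higher at stage 4 in 5 of 6 differentiations, all but low purity H9.

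**Figure D4:**
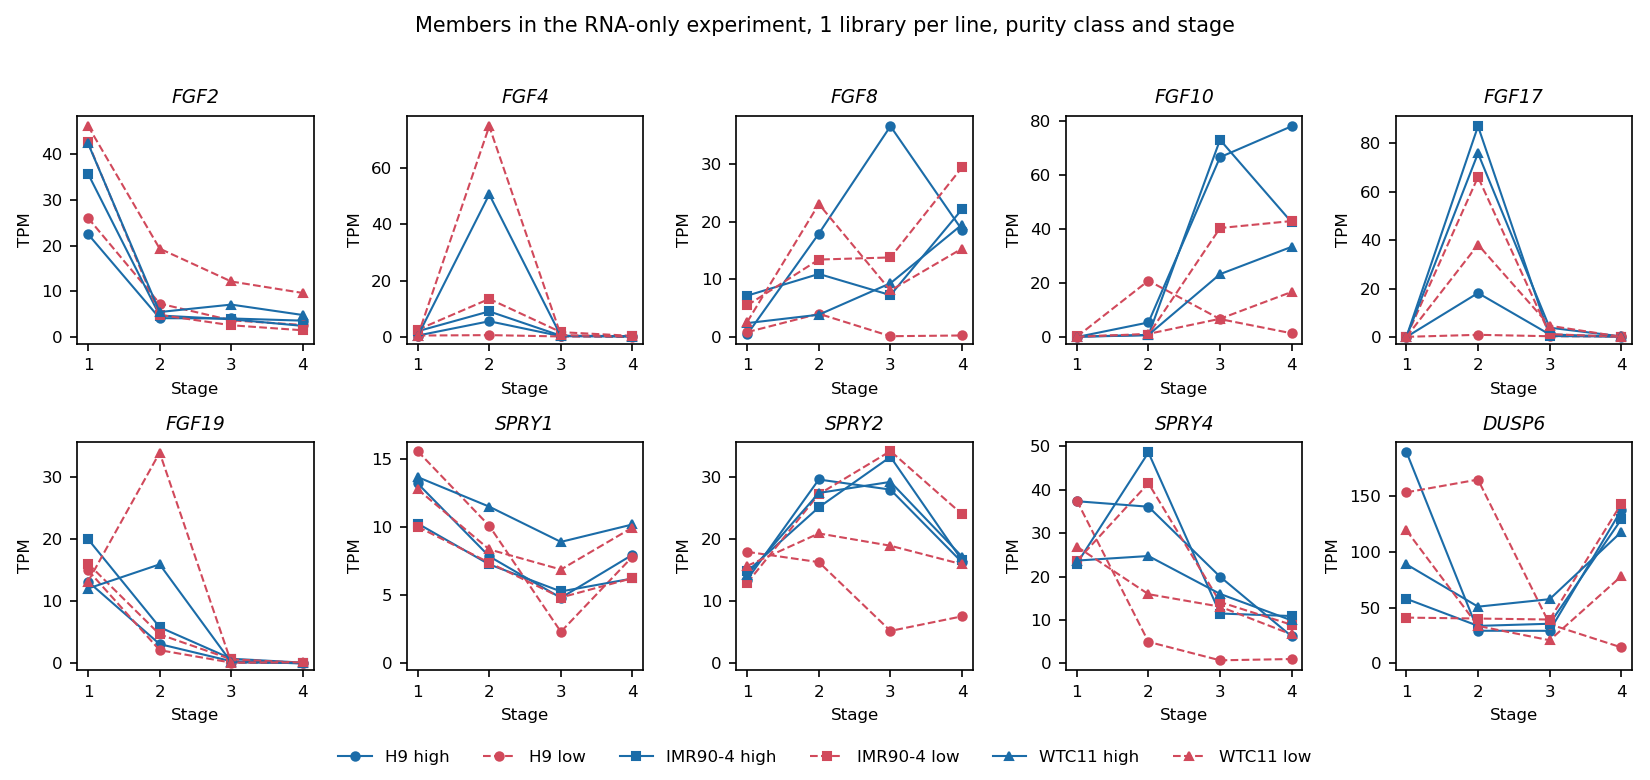
TPM of the 10 members (vertical axes, each with its own scale) at stages 1 to 4 in the RNA-only experiment, with 1 library per point, marker shape for the line and colour and line style for the purity class. FGF4 and FGF17 peak at stage 2 in every differentiation, and the low purity H9 series lies lowest for SPRY2, SPRY4 and FGF8 at stages 3 and 4.

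WTC11 at passage 69 was the low purity source in both experiments, with different kits, and the members stood at different levels. On day 4 the multi-omic wells had SPRY4 at 21.1 to 29.9 TPM, DUSP6 at 125 to 134 TPM and FGF10 at 108 to 117 TPM. The RNA-only library of day 4 had 13.1 TPM of SPRY4, 20.8 of DUSP6 and 6.77 of FGF10. FGF8 on day 2 was at 0.341 to 1.85 TPM in the wells and at 23.1 TPM in the RNA-only library, and FGF19 at 5.78 to 7.21 and 33.8 TPM. TNNT2, the gene of cardiac troponin T, was at 457 to 524 TPM in the wells on day 4 and at 0.613 TPM in the RNA-only library. Kit, collection and differentiation cannot be told apart in these values.

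Other genes of the pathway were taken from lists, and the median of all genes was 0 on days 2 to 16. Of 9 receptors and co-receptors tested, 0 were called on days 0 and 2, beside 1.03% and 5.34% of all genes. On day 4 FLRT3, an FGF receptor partner, was lower in high purity, at 31.4 ± 4.5 (high, n = 4) against 194 ± 16.3 TPM (low, n = 4, SD), -2.59 (SE 0.13, adjusted p = 4.4e-21). FGFR4 was higher in high purity on day 6, at 52.8 ± 2.12 (high, n = 4) against 13.3 ± 3.89 TPM (low, n = 4, SD), 1.95 (SE 0.17, adjusted p = 1.05e-12), and FGFR2 was lower, at 77.8 ± 8.65 (high, n = 4) against 247 ± 47.6 TPM (low, n = 4, SD), -1.64 (SE 0.1, adjusted p = 7.58e-18). FGFR2 was also called lower on day 8, at -1.35 (SE 0.11, adjusted p = 3.54e-14), and on days 13 and 16. FLRT2 was lower on day 16, at -3.01 (SE 0.12, adjusted p = 6.51e-25). FGFR1, the receptor with the highest mean of the 4 on day 0, had 122 ± 11.3 TPM (high purity) against 73.9 ± 4.61 TPM (low purity) on day 4 (SD, n = 4 each) and was not called.

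Of 11 other FGF genes tested, FGF11, an intracellular member of the family, was called higher in high purity on days 0, 2, 6, 8, 13 and 16. On day 2 it was at 25.6 ± 4.64 (high, n = 4) against 6.03 ± 1.15 TPM (low, n = 4, SD), 1.99 (SE 0.18, adjusted p = 1.57e-12). FGF18 had the high purity wells above on days 2, 13 and 16 and below on days 4 and 6, each called, and on day 16 it was at 44.3 ± 4.67 (high, n = 3) against 10.2 ± 3.79 TPM (low, n = 3, SD), 2.29 (SE 0.28, adjusted p = 3.61e-09). In the signalling core from FRS2 to MAPK3, 16 genes were tested and 0 were called on any day from 0 to 13. Of all genes, 1.03% to 12.3% were called on those days. On day 16 SOS2, a RAS exchange factor, was called at -1.00 (SE 0.073, adjusted p = 1.06e-15), beside 13.5% of all genes. Of 18 genes of heparan sulfate and its editing, 2 were higher and 2 lower in high purity on day 4, beside 3.61% and 4.22% of all genes. On day 16, 0 were higher and 6 lower, beside 5.93% and 7.53%, with a list median of -0.86, and among them GPC3, a glypican, was at 63.3 ± 27.1 (high, n = 3) against 362 ± 17.3 TPM (low, n = 3, SD), -2.36 (SE 0.17, adjusted p = 1.87e-15). In the same wells the 6 fibroblast and stromal markers summed to 496 to 605 TPM in high and 9583 to 13050 TPM in low purity, and their part in the list's change was not tested.

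Among other ERK feedback and ETS target genes, ETV4, ETV5 and IL17RD were higher in high purity on day 4, as SPRY4 was. Of 17 tested, 6 were higher and 1 lower in high purity on day 4, with a list median of 0.66, where 3.61% of all genes were higher and 4.22% lower. ETV4 and ETV5, ETS factors induced by FGF signalling, were both far apart between the classes. ETV4 was at 17.9 ± 3.29 (high, n = 4) against 2.75 ± 1.41 TPM (low, n = 4, SD) and ETV5 at 41.4 ± 1.8 (high, n = 4) against 8.1 ± 0.859 TPM (low, n = 4, SD). Their differences were 2.40 (SE 0.20, adjusted p = 1.31e-13) and 2.22 (SE 0.12, adjusted p = 8.39e-20). IL17RD, a membrane inhibitor of FGF signalling, differed by 1.73 (SE 0.089, adjusted p = 1.4e-20). On day 6, 4 were higher and 0 lower (beside 3.81% and 5.12% of all genes), led by DUSP5, a nuclear ERK phosphatase, at 60.2 ± 11.4 (high, n = 4) against 15.1 ± 4.46 TPM (low, n = 4, SD), 1.95 (SE 0.17, adjusted p = 6.65e-13). On day 16, 2 were higher and 6 lower (beside 5.93% and 7.53%), with a list median of -0.48. The stromal marker sums of that day, given above, differed in the same wells, and their part in these changes was not tested. DUSP5 was higher then too, at 2.42 (SE 0.20, adjusted p = 4.83e-14), and EGR1, an immediate early gene of ERK signalling, was lower, at -2.58 (SE 0.21, adjusted p = 7.01e-14). In the RNA-only experiment 0 genes of these 5 lists were called between the classes at any stage, where 0% of all genes were called.

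The genes whose 16 group means on the log2(TPM + 1) scale lay nearest to each member were taken from 15070 protein-coding genes, as a description over groups that share days and wells. Of the 30 genes found, 3 for each member, 18 remained with a pseudocount of 0.1 and 18 with unscaled TPM. FGF17 had WNT8A (0.997), TBXT (0.993), GSC (0.99), with Pearson's r in brackets, and 2 of these, TBXT and GSC, are transcription factors of the primitive streak. FGF4 had OC90 (0.996), TFF3 (0.99), TESPA1 (0.988). Nearest to FGF10 were RHOBTB3 (0.984), RARB (0.966), MXRA8 (0.964), of which RARB is a retinoic acid receptor. FGF19 had KLKB1 (0.984), PPP1R17 (0.983), LCK (0.98), and FGF2 had SLC38A5 (0.976), ICE1 (0.975), NIP7 (0.974). FGF8, SPRY1 and SPRY2 had no gene as near: the first gene was MED12 (0.91) for FGF8, CCT4 (0.9) for SPRY1 and GNAI2 (0.93) for SPRY2. SPRY4 had PPP4C (0.953), PYCARD (0.953), CABLES1 (0.945), and DUSP6 had GPR19 (0.962), PPP1CA (0.947), LIN28A (0.947).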

How the data were processed

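The multi-omic libraries were poly(A) RNA (Illumina TruSeq Stranded mRNA) and the RNA-only libraries total RNA (Takara SMARTer Stranded Total RNA), per the labels' protocols. The authors deposited TPM and read counts per gene. STAR 2.5.3a, featureCounts 2.0.3 and the build hg38 are listed in the submitters' processing notes; the annotation release, the TPM method and the strand setting are not given in the sources used here. The deposited counts of the RNA-only experiment matched their TPM column in 24 of 24 libraries, and 36 broken lines were left out. In the multi-omic count table, 0 of 56 columns matched the TPM under their own name and 50 matched that of another library. No count column matched the other 6 TPM columns, all of high purity: every well of day 0, well 4 of day 6 and the well of day 10. The recovered reads of these wells thus have no deposited counts to be set beside. The TPM columns were used, because each of 32 from days 0 to 6 lay nearest the WTC11 RNA-only libraries of its own day, against 6 of the count columns. This check compared days only, so it does not test the purity class in a column's name. Days 8 to 16 have no RNA-only library and could not be checked this way, and which of the tables carries the right names is not settled by the sources used here. Whole reads came out of the TPM of 37194 genes in 100% of values. The tolerance was 0.05 of a read plus a part that grew with the read number, so values of very many reads could not fail.

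Multi-omic TPM were scaled by TMM factors and tested with limma 3.58.1 (trend) on log2(TPM + 1), over genes that reached 1 TPM in 3 or more libraries. All 56 libraries were fitted with 16 group means, which share 1 estimate of the spread (40 residual degrees of freedom), and day 10 was not tested. RNA-only counts were tested with edgeR 4.0.16 (quasi-likelihood, TMM, filterByExpr), with line and stage as 12 means for purity (8 residual degrees of freedom) and the 6 differentiations as the block for stages (23848 genes). R was 4.3.3. P-values were adjusted over all genes (Benjamini-Hochberg), with a threshold of 0.05 and a log2 difference of at least 1. Single members were also compared with a two-sided exact permutation test. Alternatives were another scaling, filter, pseudocount or tool (DESeq2 1.42.0 among them), a block, no fold threshold, and each well or line left out. The fits were tested on simulated data.

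The named genes were the 10 members, up to 3 called genes with the largest difference per pathway list and comparison, and the 3 protein-coding genes nearest to each member. FGFR1 was added after its values were seen. The members and lists were chosen with earlier results of these data known. Wells that share a number did not pair: the correlation of their deviations between classes was -0.016 to 0.033. No 2 libraries held identical values. Flow cytometry values were not analysed here, and 1 marker each of the second heart field and endoderm lists is not reported here, which leaves 4 and 7 in their sums.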

Additional observations from a re-analysis of the deposited data

Results flagged for a closer look

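In 6 of 86 groups of 4 wells with a mean of at least 1 TPM, 1 well lay far from the other 3, where chance gives about 1 in 20. They were well 4 of low purity on day 6 for DUSP6, at 44.5 TPM, well 1 of high purity on day 2 for FGF10, at 2.1 TPM, and well 4 of low purity on day 2 for FGF10, at 5.6 TPM. The others were FGF2 in well 1 of low purity on day 2, at 14.8 TPM, FGF2 in well 2 of low purity on day 10, at 7.5 TPM, and SPRY1 in well 3 of low purity on day 13, at 20.5 TPM.

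The change from day 0 differed between the classes for 19 of 60 members and days, tested with limma as the difference in change (log2, high minus low). Of the 10 members 3 were called on day 2 (beside 3.24% of all genes). Over days 4, 6, 8, 13 and 16 the numbers were 5 (beside 7.02%), 3 (beside 7.2%), 3 (beside 10.3%), 2 (beside 10.5%) and 3 (beside 13.4%). FGF8 differed on every tested day, with 3.38, 2.38, 2.49, 3.23, 2.28 and 1.88 over days 2, 4, 6, 8, 13 and 16. FGF10 differed with 1.06, 1.38, 1.32 and 1.48 over days 6, 8, 13 and 16. With edgeR on recovered reads none of these 4 was called, at 0.77, adjusted p = 0.584 on day 6, 1.08, adjusted p = 0.354 on day 8, 1.05, adjusted p = 0.391 on day 13 and 1.23, adjusted p = 0.265 on day 16, where day 0 held 0 to 7 reads per well. The day 6 difference was also not called with a pseudocount of 0.1 (0.80, adjusted p = 0.0559), without low purity well 3 of day 0 (0.998) or without low purity well 4 of day 6 (0.996). For FGF4 the difference was 2.53 on day 2 and 1.23 on day 4, for FGF19 it was 1.96 on day 2, and for FGF17 it was 1.95 on day 4. SPRY4 differed by 2.14 on day 4, 1.62 on day 6 and 1.67 on day 8, and then in the other direction, by -1.06, on day 16. DUSP6 differed by -1.96 on day 4.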

How the results depend on the processing

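Of 78 called values of single members, 63 kept their call in every alternative run, 15 lost it in at least 1 and 0 reversed. The wells as a replicate block, by well number, left all 23 multi-omic counts of called members within 1.5 times, for example 4 on day 4. Without the replicate block of lines or differentiations no RNA-only count moved by more, and FGF10 from stage 2 to 3 lost its call (2.90, adjusted p = 0.0554). Without the fold threshold the members called between classes numbered 5 (beside 13.7% of all genes), 5 (beside 37.5%), 9 (beside 36.8%), 7 (beside 44.7%), 4 (beside 36%) and 6 (beside 43.1%) over days 0, 2, 4, 8, 13 and 16. For the steps of high purity they were 8, 8, 9 and 3 from day 0 to 8 (beside 30.2% to 50.5% of all genes), and for those of low purity 8, 8, 7, 2 and 2 from day 0 to 16 (beside 25.7% to 53% of all genes). The differences in change numbered 5, 9, 5, 7 and 6 over days 2, 4, 6, 8 and 16 (beside 18.8% to 34.8% of all genes). edgeR on recovered reads called 1 member on day 0 (FGF4), 5 in high purity from day 4 to 6, 2 in low purity from day 8 to 16 and 1 for the difference in change on day 13. A pseudocount of 0.1 gave 1 on day 0 and 5 in high purity from day 4 to 6, and unscaled TPM gave 2 in low purity from day 8 to 16. DESeq2 gave 3 from stage 3 to 4 and limma on TPM 0. With 1 well or line left out, the counts ranged from 1 to 2 on day 16, from 0 to 1 between classes at stage 3, from 2 to 5 for the step from stage 2 to 3 and from 0 to 2 for that from stage 3 to 4. The cause of these moves was not tested, other than fewer samples or a lower threshold. For the other tools, pseudocount, scaling and left-out samples, the share of all genes called is not given beside these counts. Such counts are thus not read as a result about the members. The 4 FGF10 differences in change lost their call with edgeR on reads, as given above, as did that of FGF17 on day 4 (4.44, adjusted p = 0.329), where day 0 held 0 to 1 read. Without TMM scaling the median of all genes moved to -0.18 on day 8, -0.13 on day 13 and -0.12 on day 16. Calls over all genes then went from 1311 higher and 1848 lower to 875 and 2578 on day 8, from 1227 and 1537 to 871 and 1977 on day 13, and from 1521 and 1932 to 954 and 2435 on day 16. Depth limits FGF8 throughout, FGF4 and FGF19 from day 4 on and FGF17 from day 6 on, where wells held few reads. On day 0 it limits FGF4 (2 to 17 reads per well), FGF10 (0 to 7) and FGF17 (0 to 1), and so their differences in change from day 0.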
